A study of Solanum lycopersicum with 31 samples.

Results

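The 8 tomato genes described here, measured in leaves, are named after early steps of sulfate assimilation or the response to low sulfur. Plants take up sulfate and activate it with ATP sulfurylase, which forms adenosine 5'-phosphosulfate (APS). APS reductase then reduces APS to sulfite in the plastid, sulfite reductase makes sulfide, and sulfide enters cysteine and glutathione. In Arabidopsis, APS reductase is regarded as a main control point of this route and its transcripts respond to light and to sulfur supply, while RESPONSE TO LOW SULFUR (LSU) genes encode small coiled-coil proteins named for their induction when sulfate is short.

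The members were given by gene identifier from among 30397 genes in the deposited tables. They comprise 3 genes annotated as adenylylsulfate reductases or reductase-like, 3 as ATP sulfurylases and 2 as RESPONSE TO LOW SULFUR 3-like proteins. All 8 passed the filter on low counts, which kept 16198 genes. The members were chosen by family, on measured values of these same libraries: the difference between experiments in the FTAZ:IT-M and PTB7-Th:IEICO-4F effects on LOC101257319, and the FTAZ:PCBM effect on LOC101243970 in the height experiment, were already known. For that reason every comparison of a filter with its control in those settings, and every comparison between the experiments for the control, FI and PI, is given below as a description. No p-value is printed for the members there. Counts of members past the edgeR threshold are given for them, and these only describe the choice.

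All plants were wild type Solanum lycopersicum, cultivar Moneymaker, grown in a chamber under ceramic metal halide and incandescent bulbs, and leaf RNA was selected for poly(A) before sequencing. Each of 8 groups combined a filter with an intensity experiment. The filters were the organic solar cell blends PTB7-Th:IEICO-4F (PI), FTAZ:IT-M (FI) and FTAZ:PCBM (FP) and a spectrally neutral control (C), and the experiments were labelled Height Controlled (HC) and PPFD Controlled (PC), where PPFD is the photosynthetic photon flux density. The groups PI_HC, FI_HC, FP_HC, C_HC, PI_PC, FI_PC, FP_PC and C_PC held 4 libraries each except PI_HC, which held 3, so that 31 libraries were measured. The libraries come from individual plants, and the labels name no plant age, sowing or chamber per group, so that a filter and the place where it hung cannot be told apart.

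The libraries held between 13671052 and 15210356 gene counts. For 3 libraries, labelled C_PC 4, PI_PC 4 and FP_PC 4, the identifier holds a code shared with a different group. That group is PI_PC for C_PC 4, FP_PC for PI_PC 4 and PI_HC for FP_PC 4. Each library is reported under its label. The libraries C_PC 4, PI_PC 2 and PI_PC 3 lay at -61.6, -60.2 and -58.6 on the first principal component of log2 expression, which held 28.5% of the variance, and every other library lay at -15.8 or above. PI_PC 1 lay at -5.30 and PI_PC 4 at 29.3, and C_PC 1, C_PC 2 and C_PC 3 lay at 20.8, 6.89 and 30.4. Whether any libraries were exchanged was not tested. The summed level of 21 light-harvesting and Rubisco small subunit genes ran between 18149 and 74280 CPM in PI_PC libraries and between 18598 and 63145 CPM in C_PC libraries, against 25037 to 33447 CPM in FI_PC libraries. No gene of this leaf list was at 0. Of 68 root-list genes (extensins and root-specific proteins) 19 were at 0, and their sum was 3127 to 3539 CPM in PI_PC libraries, against 2022 to 3064 CPM in C_PC libraries. Of 38 vascular and 31 epidermal genes 7 and 2 were at 0, with sums of 1347 to 2022 CPM and 594 to 1167 CPM over all libraries. The part of these differences in the results below was not tested. In whole leaves, fewer cells of a type and less RNA per cell cannot be told apart.

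Levels are given as CPM, counts scaled to a common library size with edgeR's trimmed mean of M-values (TMM), each with its SD over the libraries of a group. Positions are on build SL3.0. The reductases are LOC101257319 (5'-adenylylsulfate reductase 3, chloroplastic; chromosome 2, 29913915 to 29916444, plus strand, 5 exons), LOC101252466 (annotated as like it; chromosome 3, 4121794 to 4124728, minus strand, 5 exons) and LOC101256478 (5'-adenylylsulfate reductase-like 4; chromosome 4, 60318137 to 60321858, minus strand, 4 exons). The name of LOC101256478 differs from the other reductases in kind, since in Arabidopsis the reductase-like proteins have a thioredoxin-like part and lack the reductase domain. The sulfurylases are LOC101256557 (chromosome 3, 148413 to 153097, minus strand), LOC101256255 (chromosome 3, 143811 to 148165, minus strand) and LOC101259979 (chromosome 9, 68969722 to 68973662, plus strand), each with 5 exons. LOC101256557 and LOC101256255 lie in tandem with 247 bases between them. The low-sulfur genes LOC101243970 (chromosome 3, 60555181 to 60555854) and LOC101243684 (chromosome 3, 60549304 to 60549891) each consist of 1 exon on the minus strand, with 5289 bases between them.

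The families also hold genes outside the 8. LOC544267, annotated adenylyl-sulfate reductase (chromosome 2, 45383686 to 45386330), averaged 509.5 CPM per kb over the 31 libraries, against 36.1 for LOC101257319 and 6.22 for LOC101252466 on the same length-scaled measure. Of the summed level per length of these 3 reductases, LOC544267 took a group mean of 89.2% to 95.5% and LOC101257319 one of 3.66% to 8.90%. Among the sulfurylases, LOC101259979 and LOC101256557 averaged 59.97 and 52.0 CPM per kb, and LOC101256255 averaged 5.30. Of the 2 low-sulfur members, LOC101243970 averaged 147 CPM per kb and LOC101243684 averaged 7.14.

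LOC101257319, an APS reductase, had its highest level in FI_PC and its lowest in PI_HC, and the group means of 169 and 19.3 CPM differ 8.75-fold. In the height experiment it had 19.9, 18.6 and 19.5 CPM in PI_HC, 67.1, 34.2, 41.8 and 54.0 CPM in FI_HC and 35.9, 43.8, 36.8 and 24.7 CPM in FP_HC, against 123, 89.8, 82.6 and 79.4 CPM in C_HC. All 11 filter libraries of this experiment were below all 4 control libraries. In the flux experiment it had 35.3, 54.1, 62.0 and 50.7 CPM in PI_PC, 107, 171, 247 and 151 CPM in FI_PC and 16.3, 19.2, 29.8 and 26.0 CPM in FP_PC, against 33.3, 31.2, 29.0 and 55.3 CPM in C_PC. Every FI_PC library was above every other flux library, and the library labelled C_PC 4 stood above the other controls and within the PI_PC range.

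**Figure D1:**
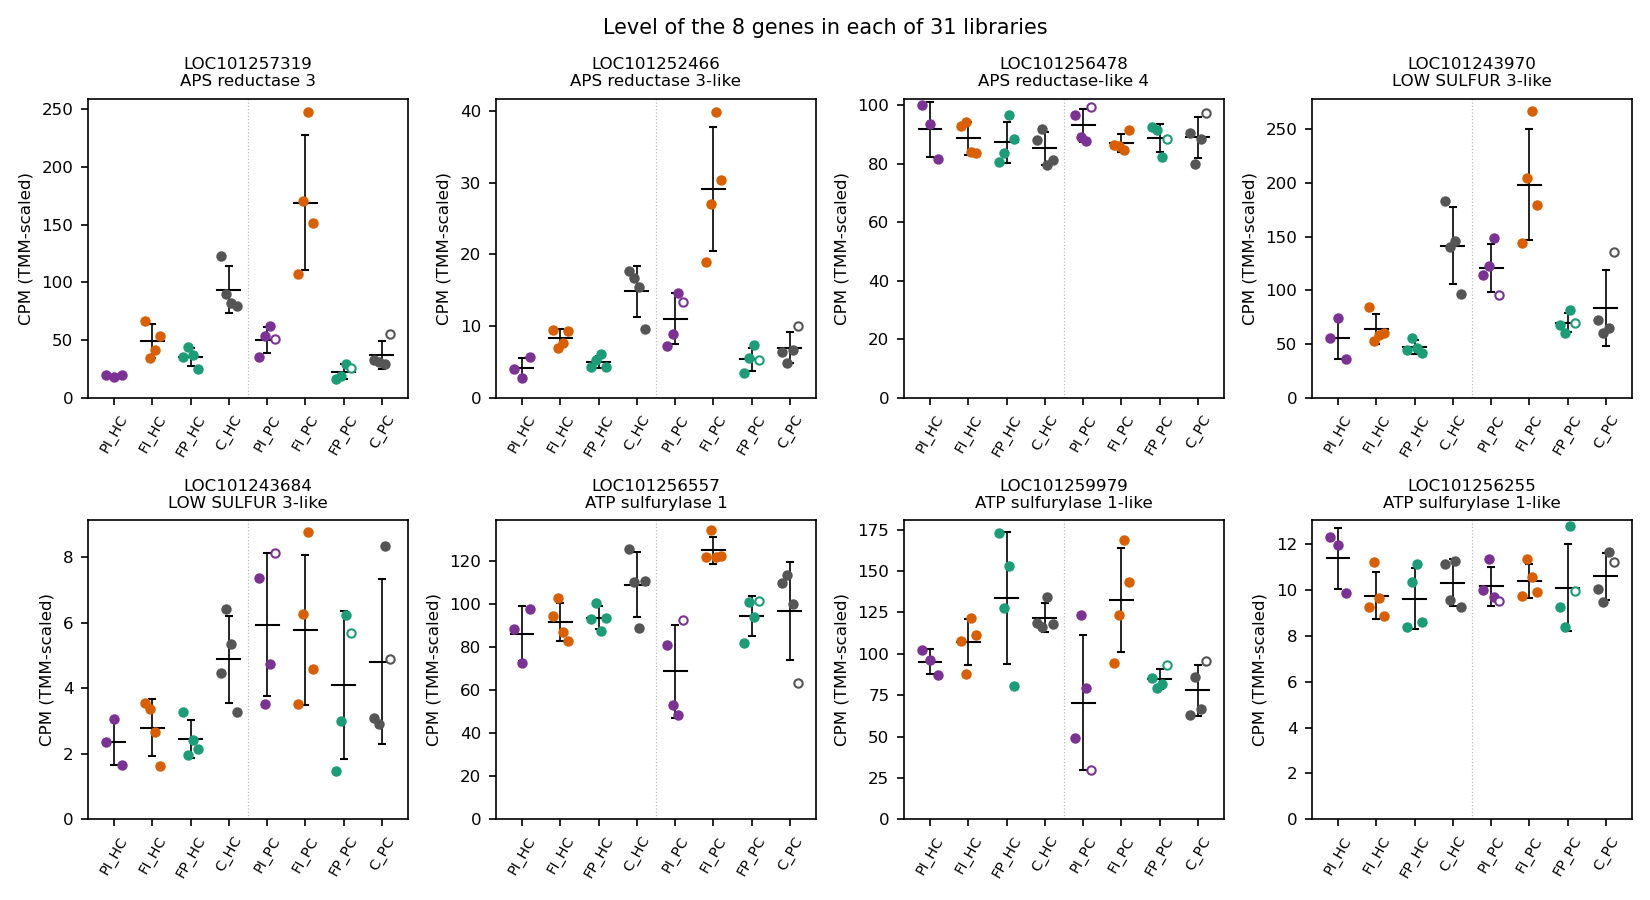
CPM (TMM-scaled, linear axis) of the 8 genes in each library, with the group mean and SD as bars and open symbols for the 3 libraries with an identifier conflict. LOC101257319, LOC101252466 and LOC101243970 share high FI_PC libraries and a C_HC group above the 3 filters of its experiment, while LOC101256478 and LOC101256255 stay within 79.6 to 99.9 CPM and 8.37 to 12.8 CPM.

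In log2 terms LOC101257319 stood at -2.28 (SE 0.29) in PI_HC, -0.93 (SE 0.25) in FI_HC and -1.41 (SE 0.26) in FP_HC relative to C_HC. Relative to C_PC it stood at 0.44 (SE 0.25) in PI_PC, 2.18 (SE 0.26) in FI_PC and -0.71 (SE 0.26) in FP_PC. The control itself was higher in the height experiment by 1.33 (SE 0.25), with 93.8 ± 20.1 CPM in C_HC and 37.2 ± 12.2 CPM in C_PC (SD, n = 4 each), and these groups did not overlap. The FI effect in HC minus that in PC was -3.11 (SE 0.36) and the PI effect -2.72 (SE 0.38) on the log2 scale, both of which contain the difference between the control groups. These were the values known when the gene was chosen.

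LOC101252466, the second APS reductase among the members, ran at a lower level, with its highest and lowest means again in FI_PC and PI_HC, 6.96-fold apart. It had 4.06, 2.78 and 5.67 CPM in PI_HC, 9.50, 6.98, 7.70 and 9.33 CPM in FI_HC and 4.28, 5.31, 6.08 and 4.27 CPM in FP_HC, against 17.7, 16.7, 15.4 and 9.67 CPM in C_HC. No filter library reached the lowest control library of that experiment. In the flux experiment it had 7.17, 8.90, 14.6 and 13.4 CPM in PI_PC, 18.9, 27.0, 39.8 and 30.4 CPM in FI_PC and 3.44, 5.60, 7.34 and 5.23 CPM in FP_PC, against 6.42, 4.83, 6.65 and 10.02 CPM in C_PC. The 4 FI_PC libraries stood above all other libraries of the series. In the order of its 8 group means FI_PC and C_HC were the one neighbouring pair that did not overlap, and for LOC101257319 that pair was C_HC and PI_PC.

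LOC101256478, the reductase-like gene, kept nearly the same level everywhere. Its group means ran between 85.2 and 93.1 CPM, a 1.09-fold range, and its 31 libraries between 79.6 and 99.9 CPM. Its log2 differences between filters and controls lay between -0.03 and 0.11, with SEs of 0.08 to 0.09. LOC101265466 (5'-adenylylsulfate reductase-like 5), a gene of the same kind outside the 8, ran between 77.9 and 111 CPM.

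LOC101243970, the more abundant low-sulfur gene, also had its highest mean in FI_PC, but its lowest in FP_HC. It had 56.0, 74.1 and 36.1 CPM in PI_HC, 84.7, 53.1, 58.3 and 60.2 CPM in FI_HC and 44.9, 56.1, 46.5 and 41.6 CPM in FP_HC, against 183, 141, 146 and 96.8 CPM in C_HC. The 11 filter libraries of this experiment were all below the controls. In the flux experiment it had 115, 123, 149 and 95.3 CPM in PI_PC, 144, 204, 267 and 179 CPM in FI_PC and 68.3, 60.4, 81.6 and 69.6 CPM in FP_PC, against 72.6, 60.6, 65.0 and 136 CPM in C_PC. The FI_PC libraries were above all C_PC libraries, and the library labelled C_PC 4 stood within the PI_PC range. Relative to C_HC the log2 values were -1.35 (SE 0.27) in PI_HC, -1.15 (SE 0.24) in FI_HC and -1.58 (SE 0.25) in FP_HC. Relative to C_PC they were 0.53 (SE 0.24) in PI_PC, 1.25 (SE 0.24) in FI_PC and -0.26 (SE 0.24) in FP_PC. Without the 3 libraries with conflicting identifiers the PI_PC value was 0.97.

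LOC101243684, its neighbour, was read from 22 to 132 counts per library. Its group means were 2.36 CPM in PI_HC, 2.80 in FI_HC and 2.45 in FP_HC, against 4.89 CPM in C_HC. In the flux experiment they were 5.94 in PI_PC, 5.78 in FI_PC and 4.10 in FP_PC, against 4.80 CPM in C_PC. Libraries of 1 group differed widely, for example 1.49, 3.01, 6.25 and 5.67 CPM in FP_PC, and the PI_HC and FP_HC libraries were all below those of C_HC.

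The sulfurylases, which activate sulfate before reduction, moved less. LOC101256557 had 88.4, 72.6 and 97.8 CPM in PI_HC, 83.0 to 103 CPM in FI_HC and 87.6 to 100.4 CPM in FP_HC, against 89.0 to 126 CPM in C_HC, and these groups overlapped. In the flux experiment it had 80.9, 53.0, 48.4 and 92.8 CPM in PI_PC, 122, 135, 122 and 122 CPM in FI_PC and 81.8, 101, 94.1 and 102 CPM in FP_PC, against 109.9, 113, 100.2 and 63.6 CPM in C_PC. The lowest 3 of the 31 libraries were PI_PC 3, PI_PC 2 and the library labelled C_PC 4, the ones that stand apart on the first component.

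LOC101259979 had 102, 96.2 and 87.1 CPM in PI_HC, 108, 88.1, 121 and 111 CPM in FI_HC and 173, 128, 153 and 80.4 CPM in FP_HC, against 119, 116, 134 and 118 CPM in C_HC. In the flux experiment it had 49.1, 124, 79.6 and 29.9 CPM in PI_PC, 94.3, 124, 169 and 143 CPM in FI_PC and 85.2, 79.5, 82.0 and 93.4 CPM in FP_PC, against 63.3, 86.2, 66.8 and 95.4 CPM in C_PC. The 4 PI_PC libraries ran from below every other library of the series to within the FI_PC range, with a coefficient of variation of 57.9%. LOC101256255, the third sulfurylase, kept group means of 9.61 to 11.4 CPM, a 1.18-fold range.

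**Figure D2:**
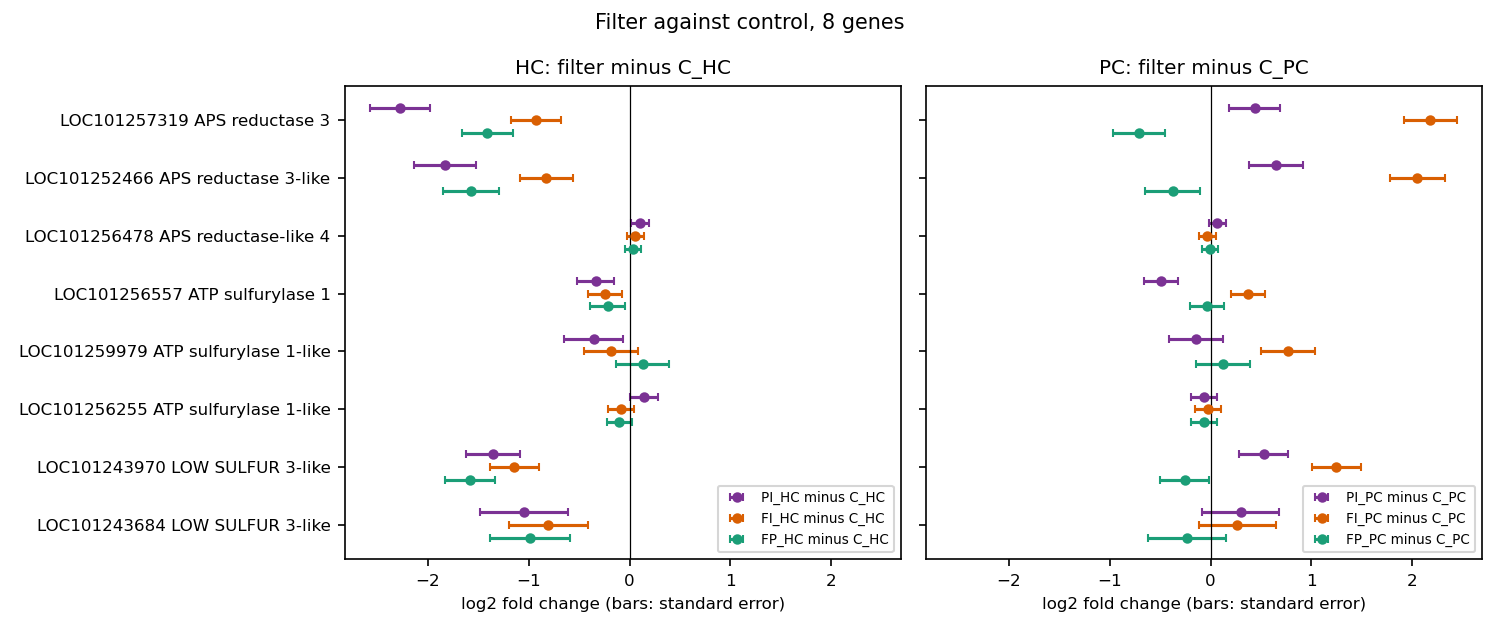
Log2 fold change of each gene, filter minus control of the same experiment, with standard errors as bars, in the height experiment (left) and the flux experiment (right). The APS reductases LOC101257319 and LOC101252466 and the low-sulfur gene LOC101243970 lie below 0 for all 3 filters on the left and furthest above 0 for FI_PC on the right, and LOC101256478 and LOC101256255 lie close to 0 throughout.

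Counted over the members, 3 of 8 passed the edgeR threshold (adjusted p under 0.05) as higher in FI_PC than in C_PC, where 2.31% of all genes tested passed in either direction and 1.43% passed as higher. As lower than C_HC, 3 of 8 passed in PI_HC, where 2.14% of all genes passed (1.14% as lower), and 3 of 8 in FP_HC, where 0.037% passed (0.0185% as lower). None of the 8 passed in PI_PC against C_PC (0.309% of all genes) or in FI_HC against C_HC (0% of all genes, with 839 genes at an unadjusted p under 0.05, and 1 of the 8 with DESeq2). These contrasts were among those known when the genes were chosen, so the counts are a description. The 3 members that passed were LOC101257319, LOC101252466 and LOC101243970 each time. The FP_HC count was 0 without C_HC 1, FP_HC 1, FP_HC 3 or FP_HC 4 and 1 without C_HC 2, C_HC 3 or FP_HC 2. It was 2 with the replicate number as a block. The PI_HC count was 2 without PI_HC 4. The FI_PC count was 2 with only the compared groups in the fit. The PI_PC count was 3 without the library labelled C_PC 4, 1 without PI_PC 4 and 2 without the 3 libraries with conflicting identifiers, where edgeR called 4633 genes in place of 50.

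Between the experiments, 1 of 8 genes, LOC101257319, passed as higher in C_HC than in C_PC, where 0.37% of all genes passed (0.191% as higher). In FI_HC against FI_PC 3 of 8 passed as lower, where 0.111% of all genes did (0.0741% as lower), and in PI_HC against PI_PC 3 of 8, where 3.44% did (1.51% as lower). For the difference of a filter's effect between the experiments, 3 of 8 passed as lower in HC for FI, where 1.2% of all genes passed (0.698% as lower), and 3 of 8 for PI, where 0.833% passed (0.401% as lower). None of 8 passed for FP, where 0% of all genes passed and 602 had an unadjusted p under 0.05. The PI and FI contrasts share their control libraries, and these counts too are only a description of the choice.

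Several of these counts depended on the libraries in the fit. With only the compared groups, none of the 8 passed between C_HC and C_PC or between PI_HC and PI_PC, where 0 genes were called in all, and 1 passed for the PI effect, where 1 gene was called in all. Between C_HC and C_PC the count was 0 without C_HC 1, 2 without C_HC 4 and 3 without the library labelled C_PC 4. Between PI_HC and PI_PC it was 1 without PI_HC 4 or PI_PC 3 and 2 without PI_HC 1 or PI_HC 3. For the PI effect it was 2 without PI_HC 4.

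FP_PC was set against C_PC, the filter comparison that the choice of genes did not mention, although its C_PC libraries also enter the FI and PI effects on LOC101257319 that the choice used. None of the 8 genes passed, and edgeR called 0% of all genes in this comparison, with 660 genes at an unadjusted p under 0.05. LOC101257319 differed by -0.71 (SE 0.26), and the FP_PC library at 29.8 CPM lay just inside the C_PC range. LOC101252466 differed by -0.38 (SE 0.28) and LOC101243970 by -0.26 (SE 0.24). The median over the 8 genes was -0.15, against -0.02 over all genes tested.

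The filters were then set against each other within an experiment. These contrasts were not used to choose the genes, but they share the filter libraries with contrasts that were, so their p-values are not independent evidence. LOC101257319 is given without a p-value in them, because its FI and PI libraries were used in choosing the genes. Where it is among the members counted, the count is a description. Between FI_PC and FP_PC, 3 of 8 genes rose in FI_PC, where 4.97% of all genes passed and 3.11% passed as higher. The APS reductase LOC101257319 was higher by 2.89 on the log2 scale (SE 0.27) and LOC101252466 by 2.43 (SE 0.28, edgeR adjusted p = 6.11e-06). The low-sulfur gene LOC101243970 was higher by 1.505 (SE 0.25; edgeR adjusted p = 0.000464). The sulfurylases LOC101256557 and LOC101259979 had differences of 0.40 (SE 0.17) and 0.64 (SE 0.27) that did not pass, with edgeR adjusted p-values of 0.189 and 0.187. The median over the 8 genes was 0.57, against -0.00 over all genes tested.

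PI_PC against FP_PC gave 2 of 8 genes higher, where 4.31% of all genes passed and 2.11% passed as higher. LOC101257319 rose by 1.15 (SE 0.26) with no overlap between the groups. LOC101252466 rose by 1.03 (SE 0.27; edgeR adjusted p = 0.0324) although the lowest PI_PC library, at 7.17 CPM, was below the highest FP_PC library, at 7.34 CPM. LOC101243970 had a difference of 0.78 that did not pass (SE 0.24, edgeR adjusted p = 0.0568). With only the compared groups in the fit none of the 8 passed, where 1 of all 14795 genes tested was called. Without the 3 libraries with conflicting identifiers 4 passed, where 2787 of all 16100 genes were called in place of 698. Without PI_PC 3 or FP_PC 2 none passed, without FP_PC 1 or FP_PC 4 only 1 passed, and without PI_PC 4 the count was 4.

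PI_PC against FI_PC gave 4 of 8 genes lower, where 10.2% of all genes passed and 5.32% passed as lower. LOC101257319 fell by 1.74 on the log2 scale (SE 0.26) and LOC101252466 fell by 1.40 (SE 0.26, edgeR adjusted p = 0.00126). Both sulfurylases of higher level fell as well, LOC101256557 by 0.86 (SE 0.17; edgeR adjusted p = 0.00191) and LOC101259979 by 0.91 (SE 0.27; edgeR adjusted p = 0.0289). The LOC101259979 groups overlapped, and its call was lost without any 1 of FI_PC 2, FI_PC 3, FI_PC 4, PI_PC 1, PI_PC 3 or PI_PC 4. LOC101243970 differed by -0.72 (SE 0.24) and did not pass (edgeR adjusted p = 0.0549). With only the compared groups in the fit 2 of the 8 passed.

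In the height experiment no member passed between filters. FI_HC against FP_HC had 0% of all genes passing and 382 genes at an unadjusted p under 0.05. PI_HC against FP_HC had 0.0556% of all genes passing and 1252 at an unadjusted p under 0.05, and PI_HC against FI_HC had 0.0803% and 1503. LOC101257319 differed by -1.35 (SE 0.28) between PI_HC and FI_HC and by -0.87 (SE 0.28) between PI_HC and FP_HC. LOC101252466 differed by -1.01 between PI_HC and FI_HC (SE 0.31, edgeR adjusted p = 0.215).

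FP_HC against FP_PC also gave none of 8, where 0.0494% of all genes passed and 1317 had an unadjusted p under 0.05. LOC101243970 had a difference of -0.57 (SE 0.24), given without a p because its FP_HC libraries were used in choosing the genes. LOC101257319 and LOC101259979 differed by 0.63 (SE 0.26) and 0.65 (SE 0.27).

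Plants of 1 group differed from each other, and this spread was compared between genes after the group mean was removed. Over 28 pairs of members and 31 libraries, 2 pairs passed a permutation test within groups. LOC101257319 and LOC101252466, both APS reductases, had a Pearson r of 0.751 and a Spearman rho of 0.740, with a permutation p of 1e-05, the smallest the draws can give, and an adjusted p of 0.00028. LOC101257319 and the low-sulfur gene LOC101243970 had an r of 0.725 and a rho of 0.723, with a permutation p of 3e-05 and an adjusted p of 0.00042. Without the 2 libraries farthest out these r values were 0.665 and 0.608, and without the 3 libraries with conflicting identifiers they were 0.735 and 0.699. LOC101252466 and LOC101243970 had an r of 0.423 (adjusted permutation p = 0.181).

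The sulfurylases LOC101256557 and LOC101259979 ran in opposite directions between plants of a group, with an r of -0.625 and an adjusted permutation p of 0.0598. Without C_PC 4, PI_PC 2 and PI_PC 3 the r was -0.273.

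**Figure D3:**
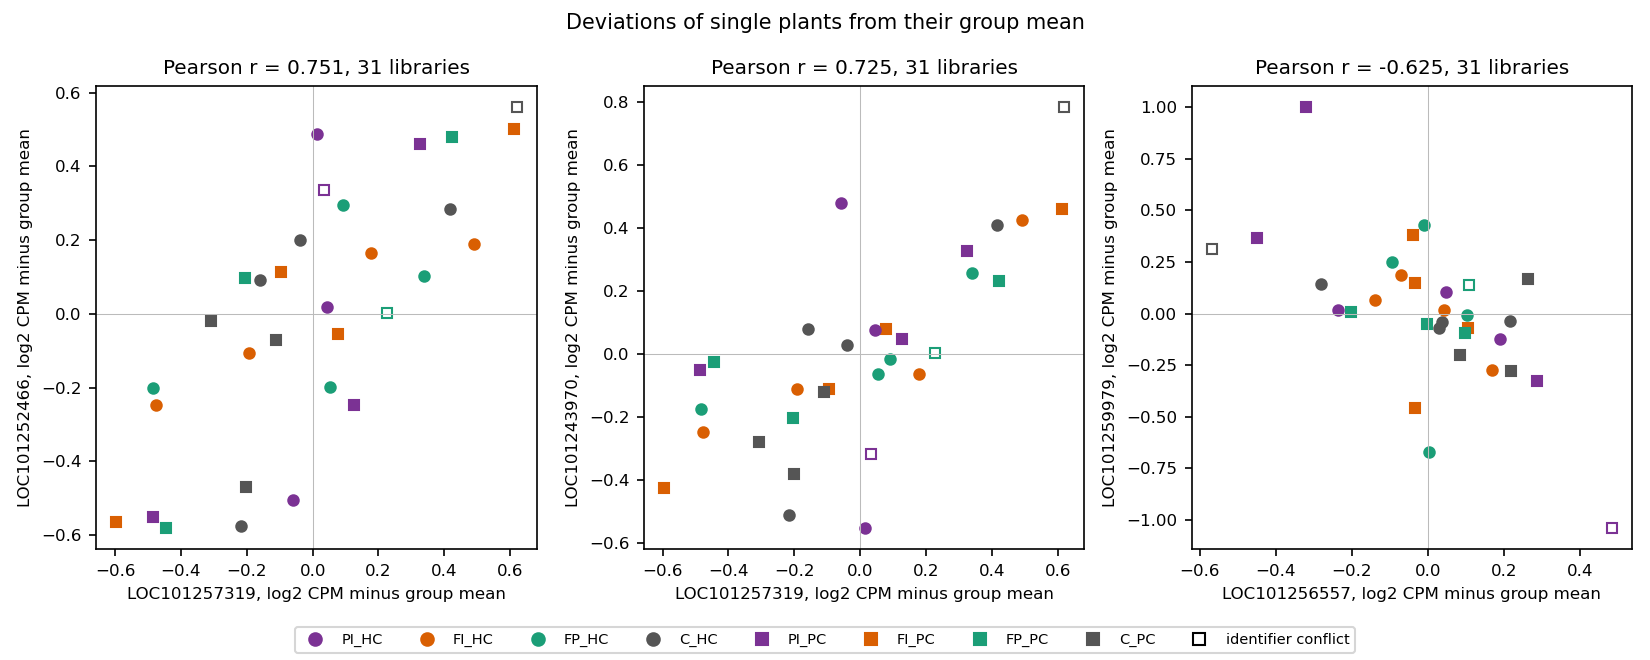
Log2 CPM of gene pairs after the group mean is subtracted, 1 symbol per library, with circles for HC, squares for PC and open symbols for the 3 libraries with an identifier conflict. The pairs of LOC101257319 with LOC101252466 and with LOC101243970 rise together with r of 0.751 and 0.725. The sulfurylases LOC101256557 and LOC101259979 have an r of -0.625, which did not pass.

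The tables count each exon record separately, so the position of the counts within a gene can be read. In LOC101257319 the fourth exon, of 799 bases, held 69.3% of all counts and the first held 0.236%, 67 counts over all libraries. Per base these exons held 24.6 and 0.394 counts. In LOC101252466 exons 4 and 5 held 50.7% and 41.2%, and in LOC101256478 exon 4 held 69.9%. The sulfurylases share an exon layout, with 406, 261 and 87 bases in exons 2, 3 and 4 of all 3 genes. The exon of 87 bases held 1.501% of the counts of LOC101256557, 2.11% of LOC101259979 and 2.12% of LOC101256255. Exons 2 and 3 of LOC101257319, of 138 and 130 bases, held 11.3 and 8.53 counts per base, against 0.394 in its first exon of 170 bases. A fragment that reaches into more than 1 record was assigned to none, which cannot occur within the single-exon low-sulfur genes, and its part in this pattern was not tested.

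**Figure D4:**
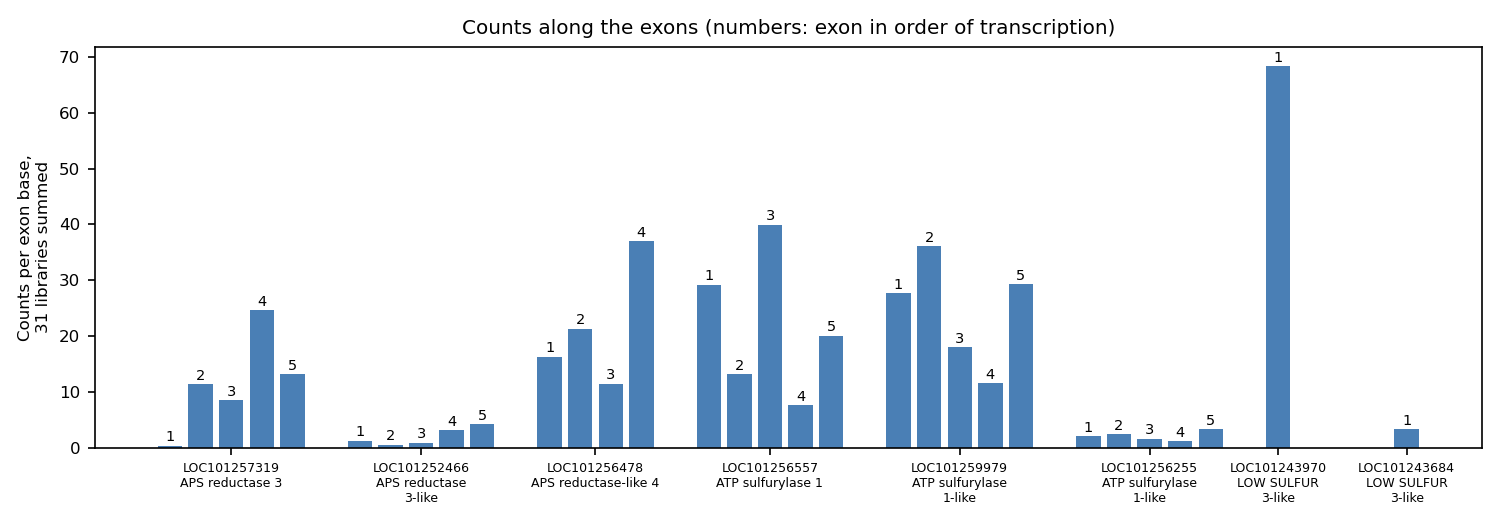
Counts per base of each exon, summed over the 31 libraries, for the 8 genes, with the exon number in order of transcription above each bar. In LOC101257319 exon 4 stands at 24.6 counts per base and exon 1 at 0.394.

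LOC544267, the reductase with the highest level per length and not a member, was tested with the whole table. It was measured in the same libraries as the members, in contrasts known when they were chosen. The p-values here and for the sulfur genes below are therefore not independent evidence. LOC544267 had 918, 1469, 1999 and 1488 CPM in FI_PC, against 663, 773, 535 and 452 CPM in C_PC, and no libraries overlapped. It rose by 1.28 (SE 0.22; edgeR adjusted p = 0.00179), although with only the compared groups in the fit the adjusted p was 0.128. In the height experiment it had 455, 315 and 387 CPM in PI_HC, against 1142, 1117, 891 and 806 CPM in C_HC, again without overlap. It fell by 1.36 (SE 0.24; edgeR adjusted p = 0.00258) there, and the FP_HC difference of -0.93 did not pass (edgeR adjusted p = 0.270). Its FI effect in HC minus that in PC was -1.79 (SE 0.30; edgeR adjusted p = 0.0023).

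The other sulfur genes were drawn from gene descriptions in 11 lists (sulfite reductase, sulfite oxidase, APS kinase, cysteine and glutathione synthesis, glutathione breakdown, sulfur-deficiency-induced proteins and sulfate transporters among them). Of 66 genes, 42 were tested. Several transcripts were annotated for 16 of the 66. Fragments that reach into more than 1 exon record were assigned to none, and the part of this in their counts was not tested. In FI_PC against C_PC, where 2.31% of all genes passed, 5 rose and 1 fell, and the median over the 42 was 0.09. The genes named SULFUR DEFICIENCY-INDUCED, which in Arabidopsis repress glucosinolate synthesis under low sulfur, were the 3 with the largest rises. LOC101258461, an SDI1-like gene, had 3.44, 6.67, 7.96 and 6.26 CPM in FI_PC, against 1.13, 0.521, 0.585 and 0.715 CPM in C_PC, and rose by 3.03 (SE 0.38; edgeR adjusted p = 4.54e-05). LOC101260472 (SDI1) had 3.18, 5.46, 7.30 and 5.19 CPM in FI_PC, against 1.963, 2.38, 1.02 and 1.25 CPM in C_PC, and rose by 1.68 (edgeR adjusted p = 0.0206). Neither gene's groups overlapped.

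LOC101258787 (SDI2) averaged 36.5 ± 18.2 CPM in FI_PC and 12.2 ± 3.41 CPM in C_PC (SD, n = 4 each; edgeR adjusted p = 0.00144). LOC101055609, a sulfite reductase, the enzyme after APS reductase, averaged 245 ± 21.7 CPM in FI_PC and 179 ± 10.97 CPM in C_PC (edgeR adjusted p = 0.00694). LOC101259958, gamma-glutamylcyclotransferase 2-1, an enzyme of glutathione breakdown, rose by 0.71 (edgeR adjusted p = 0.0135). LOC101262973, an APS kinase, which diverts APS from reduction, fell by 1.28 (edgeR adjusted p = 0.0179). It had only 16, 9, 14 and 10 counts in FI_PC, against 33, 18, 21 and 44 in C_PC. Of 3 APS kinases tested it was the 1 that passed, and their median difference was -0.03. With only the compared groups in the fit 1 of the 6 sulfur genes that passed in FI_PC still did, the SDI1-like LOC101258461. Of single libraries, the LOC101262973 call was lost without FI_PC 2, FI_PC 3, FI_PC 4 or C_PC 1, that of LOC101260472 without FI_PC 2, FI_PC 3 or C_PC 3, and that of LOC101259958 without FI_PC 4.

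In PI_HC against C_HC, where 2.14% of all genes passed, 1 gene of the list rose and 4 fell, with a median of -0.12 over the 42. LOC101260472 (SDI1) had 0.338, 0.398 and 0.861 CPM in PI_HC, against 7.45, 5.62, 3.596 and 3.96 CPM in C_HC, and fell by 3.27 (SE 0.50; edgeR adjusted p = 0.000711). LOC101258461 had 0.338, 0.464 and 0.574 CPM in PI_HC, against 4.35, 2.81, 2.09 and 3.36 CPM in C_HC, and fell by 2.76 (SE 0.45; edgeR adjusted p = 0.00136). Both were near the floor of 3 counts, 0.175 to 0.226 CPM, in PI_HC. The sulfite reductase LOC101055609 averaged 152 ± 8.18 CPM in PI_HC (SD, n = 3) and 224 ± 28.9 CPM in C_HC (SD, n = 4), with an edgeR adjusted p of 0.00262. SDI2 (LOC101258787) fell by 1.05 (edgeR adjusted p = 0.0467) and LOC101251560, a low affinity sulfate transporter 3-like gene, rose by 2.53 (edgeR adjusted p = 0.037). Each of these calls was lost when any of several single libraries was left out. LOC101251560 had only 20, 14 and 14 counts in PI_HC, against 6, 1, 2 and 2 in C_HC, where most libraries were below the floor of 3 counts.

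In PI_PC against C_PC, where 0.309% of all genes passed, 1 gene of the list fell, the sulfate transporter 3.1 gene LOC101264062, by 1.17 (SE 0.22; edgeR adjusted p = 0.0267). That count was 9 without the library labelled C_PC 4, 12 without the 3 libraries with conflicting identifiers and 0 without C_PC 1, C_PC 2 or PI_PC 3. Without the 3 conflicting libraries edgeR called 4633 of all 16100 genes tested, in place of 50. The 12 of 42 are to be read against that share and are no result about sulfur genes. None passed in FP_PC against C_PC, FI_HC against C_HC or FP_HC against C_HC.

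**Figure D5:**
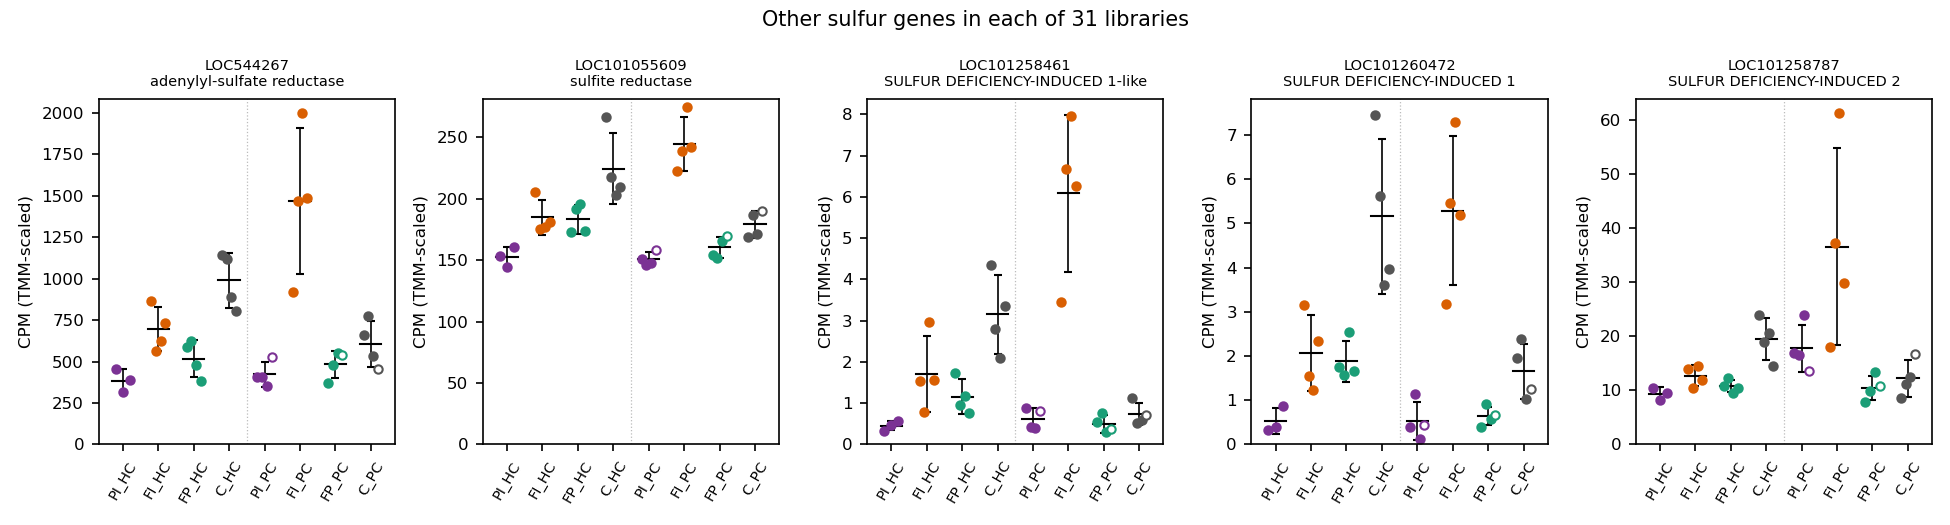
CPM per library of LOC544267 (adenylyl-sulfate reductase), LOC101055609 (sulfite reductase), LOC101258461 (SDI1-like), LOC101260472 (SDI1) and LOC101258787 (SDI2), with group means and SD. In each panel the FI_PC mean exceeds the C_PC mean and the PI_HC mean lies below the C_HC mean.

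Likeness over all 31 libraries was measured by Pearson's r of log2 CPM, as a description, since the libraries share their groups. Outside the reductase, sulfurylase and low-sulfur families, the gene most like LOC101243970 was SDI2 (LOC101258787, r = 0.880). Next came LOC101250548, a serine hydroxymethyltransferase 7-like gene (r = 0.833), and LOC101268822, proline-, glutamic acid- and leucine-rich protein 1 (r = 0.811). Within the families its r was 0.857 with LOC101252466 and 0.837 with LOC101257319. Outside the families LOC101259979 was most like LOC101249431, annotated ATHB-52 (r = 0.869). LOC101256478, the gene with a nearly constant level, had no gene above an r of 0.706, reached by LOC101266937, a gamma carbonic anhydrase 2 gene. LOC101257319 was added to this search after its values were seen. Outside the families it was most like LOC101251881, a protein LTV1 homolog (r = 0.915). LOC101257826, GTP-binding protein ERG (r = 0.909), and SDI2 (r = 0.906) came next. Within the families LOC101257319 had an r of 0.944 with LOC101252466, 0.853 with LOC544267 and -0.613 with the reductase-like LOC101265466.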

How the data were processed

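Leaf poly(A) RNA of 31 tomato libraries was sequenced. Per the file headers, the authors used featureCounts 2.0.1 in reverse-stranded mode with RefSeq gene models for SL3.0, and the deposited counts are raw read counts per exon record; reads mapping to several places were not counted. HISAT2, FastQC and DESeq2 are named, per the submitters' processing notes, without versions.

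Records were summed per gene (30397 genes). Records with no gene name held 0.0112% to 0.379% of the counts and were left out. Main tests used edgeR 4.0.16 quasi-likelihood fits in R 4.3.3, with TMM scaling, filterByExpr and all 31 libraries in 1 fit, and Benjamini-Hochberg adjustment over 16198 genes at 0.05, and were tested on simulated data. Each SE was derived from the fold change and its F statistic. DESeq2 1.42.0 was an alternative. Members, lists and tests were chosen with earlier results of these data known. All 8 members and the other genes of their families were named. Of the other sulfur genes matching fixed words in the descriptions, those past the threshold in a filter-against-control comparison were named and the rest counted. Within-group correlations used 100000 permutations. Libraries held 13671052 to 15210356 counts; 3 counts, the floor, equal 0.175 to 0.226 CPM, which covers counting error only. Replicates are plants, and no pair of libraries agreed within sampling noise. Same-numbered libraries did not deviate together (mean correlation -0.196 to 0.113), so numbers pair nothing.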

Additional observations from a re-analysis of the deposited data

Results flagged for a closer look

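Within groups of 4, 1 library stood far from the other 3 in 4 of 56 checks, where chance gives about 5%. LOC101257319 had 55.3 CPM in the library labelled C_PC 4, against 29.0 to 33.3 CPM in the other C_PC libraries. LOC101243970 had 136 CPM in the same library, against 60.6 to 72.6 CPM. Both involve a library whose identifier conflicts with its label, and the part of that conflict was not tested. LOC101256557 had 135 CPM in FI_PC 2, against 122 CPM in each of the others, and LOC101259979 had 134 CPM in C_HC 3, against 116 to 119 CPM.

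For some genes every filter library moved one way from the control mean in HC and the other way in PC. The effect in HC minus that in PC is given without a p-value, since such differences were known when the members were chosen, and the pattern of directions itself was not tested. For FI it was -3.11 for LOC101257319, -2.88 for LOC101252466, -2.39 for LOC101243970, -0.62 for LOC101256557 and -0.95 for LOC101259979. For PI it was -2.49 for LOC101252466 and -1.88 for LOC101243970.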

How the results depend on the processing

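No result reversed under any alternative run. Members passing between FI_PC and FP_PC numbered 3, and 5 with only the compared groups in the fit or without C_PC 4, PI_PC 2 and PI_PC 3. All genes called there numbered 805 in the main fit, 995 with only the compared groups and 1599 without those libraries. Leaving out single libraries gave 3 to 3 members. For PI_PC against FP_PC the count of 2 became 0 with the compared groups only, 4 without the 3 libraries with conflicting identifiers and 1 without those that stand apart, and 0 to 4 without single libraries. All genes called there numbered 698 in the main fit and 1 with the compared groups only. They numbered 2787 without the conflicting libraries and 312 without those that stand apart. For PI_PC against FI_PC the 4 became 2 with the compared groups only and 3 to 5 without single libraries. PI_HC against FP_HC gave 1 with the compared groups only, and PI_HC against FI_HC gave 1 with DESeq2, with a minimum of 10 counts, and without either set of 3 libraries. Sulfur genes outside the members passing in FI_PC against C_PC numbered 6, and 3 with at least 10 counts, 1 with the compared groups only and 4 to 6 without single libraries. In PI_PC against C_PC the 1 became 4 with DESeq2, 0 with the compared groups only, 12 without the conflicting libraries, 2 without those that stand apart and 0 to 9 without single libraries. In PI_HC against C_HC the 5 became 3 with no filter, 2 with at least 10 counts and 3 to 4 without single libraries. With the replicate number as a block, that count was 3, and the member counts of the flux contrasts between filters stayed at 3, 2 and 4. The member count in FP_HC against C_HC was 2 with that block, in place of 3. Spearman's rho gave 6 correlated pairs in place of 2. All genes called in FI_PC against C_PC numbered 374, but 15 with the compared groups only and 1526 without C_PC 4, PI_PC 2 and PI_PC 3; in PI_HC against C_HC they numbered 347, 745 and 924. In PI_PC against C_PC they numbered 50, but 0 with the compared groups only and 4633 without the conflicting libraries; in PI_HC against PI_PC 557, 0 and 2497; for the PI effect between experiments 135, 1 and 2809; and in C_HC against C_PC 60, 0 and 283. The causes were not tested. Depth limits LOC101243684, read from 22 to 132 counts per library.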

Other observations

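LOC101259547, annotated RESPONSE TO LOW SULFUR 3 and too low to be tested, had 131 counts in all. Its counts were 3, 15, 22 and 6 in PI_PC and 2, 1, 4 and 2 in FI_PC, against 1, 1, 1 and 10 in C_PC. LOC101268660, a low-sulfur gene 12934 bases from LOC101243684, had 9, 7, 5 and 59 counts in PI_PC, against 71, 26, 31 and 8 in C_PC. The 59 and the 8 are in the libraries labelled PI_PC 4 and C_PC 4, whose identifiers conflict with their labels.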
